A study of Mus musculus with 12 samples.

Results

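The 36 genes described here encode the blood coagulation factors, the inhibitors of coagulation, the fibrinolytic system and the plasma kallikrein-kinin system. They are given by name as members of the pathway, by a rule that uses no measured value but was set with earlier results of these data known, and all 36 were among the 15140 genes of the liver count table. The table came from polyA-selected RNA sequencing of liver of male mice, with 12 libraries, 6 in each of 2 groups. Libraries of one group, called KO, came from Phb1adipo-/- mice, in which the gene of prohibitin 1, a scaffold protein of the inner mitochondrial membrane, was deleted in adipocytes. The other group, called WT, was wild type. Both groups ate a high-fat diet with 60 kcal% fat for 3 months, starting at 7 to 8 weeks of age, so no comparison with lean mice is made. The Cre line that drove the deletion is not given in the sources used here. No label says that the libraries came from separate mice, so each p-value reflects only how far these 12 libraries spread.

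The liver makes most of the circulating clotting proteins. In coagulation, tissue factor and factor VII start a chain of serine proteases that ends with thrombin, which cuts fibrinogen into fibrin, and antithrombin, protein C and tissue factor pathway inhibitor restrain the chain. Plasmin, made from plasminogen, dissolves fibrin. In the contact and kinin system, factor XII and plasma kallikrein activate each other on surfaces, and kallikrein cuts high-molecular-weight kininogen to release bradykinin, a peptide that widens vessels and makes them leaky.

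Levels were expressed as CPM, read counts scaled to a common library size with TMM factors, and total counts ran from 30348123 to 40828767 per library. Phb, the targeted gene, ran from 88.58 to 100.4 CPM in KO and from 80.02 to 91.23 CPM in WT, which does not check a deletion made in another tissue. The hepatocyte marker list was detected in full, at a summed 95792 to 127732 CPM in KO and 94896 to 131613 CPM in WT. KO library 2 stood apart for the clotting genes: it was the lowest of all 12 libraries for 18 of the 35 members tested, against 9.8% of all genes, and the median deviation of the members from their means over libraries was -0.195 there (log2; 0.02 over all genes). Its TMM factor, 1.094, was the highest of the 12. WT library 6 was the highest for 8 members and WT library 3 for 7. In bulk tissue, fewer cells of a type and less RNA per cell cannot be told apart.

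Of the 36 genes, 2 rose in KO liver, both kininogens, and no member fell. The other tested members gave adjusted p of at least 0.0637 in edgeR's quasi-likelihood test. Across all 15000 genes tested, the same test called 2.64%, with 1.15% higher and 1.49% lower in KO, and 2 of 35 members is 5.71%. Serpina5 was removed by the filter on low counts and is described apart. Log2 fold changes of the 35 members were positive for 13 and negative for 22 (62.9% negative, against 49.4% of all genes), with a median of -0.04 against 0.00 for all genes. Most were small: 21 of the 35 (60.0%) lay within 0.15 of 0 on the log2 scale, against 47.4% of all genes. Without KO library 2, the split was 15 positive and 20 negative, without KO library 6 it was 9 and 26, and without WT library 3, where Serpina5 entered the fit, it was 17 and 19. An unadjusted p under 0.05 was reached by 7 of the 35, against 21.2% of all genes. DESeq2, which called 8.02% of all genes, called 4 of 36 members: both kininogens, Serpina5 and Tfpi2. Of these, Serpina5 held no more than 4 counts in any WT library.

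**Figure D1:**
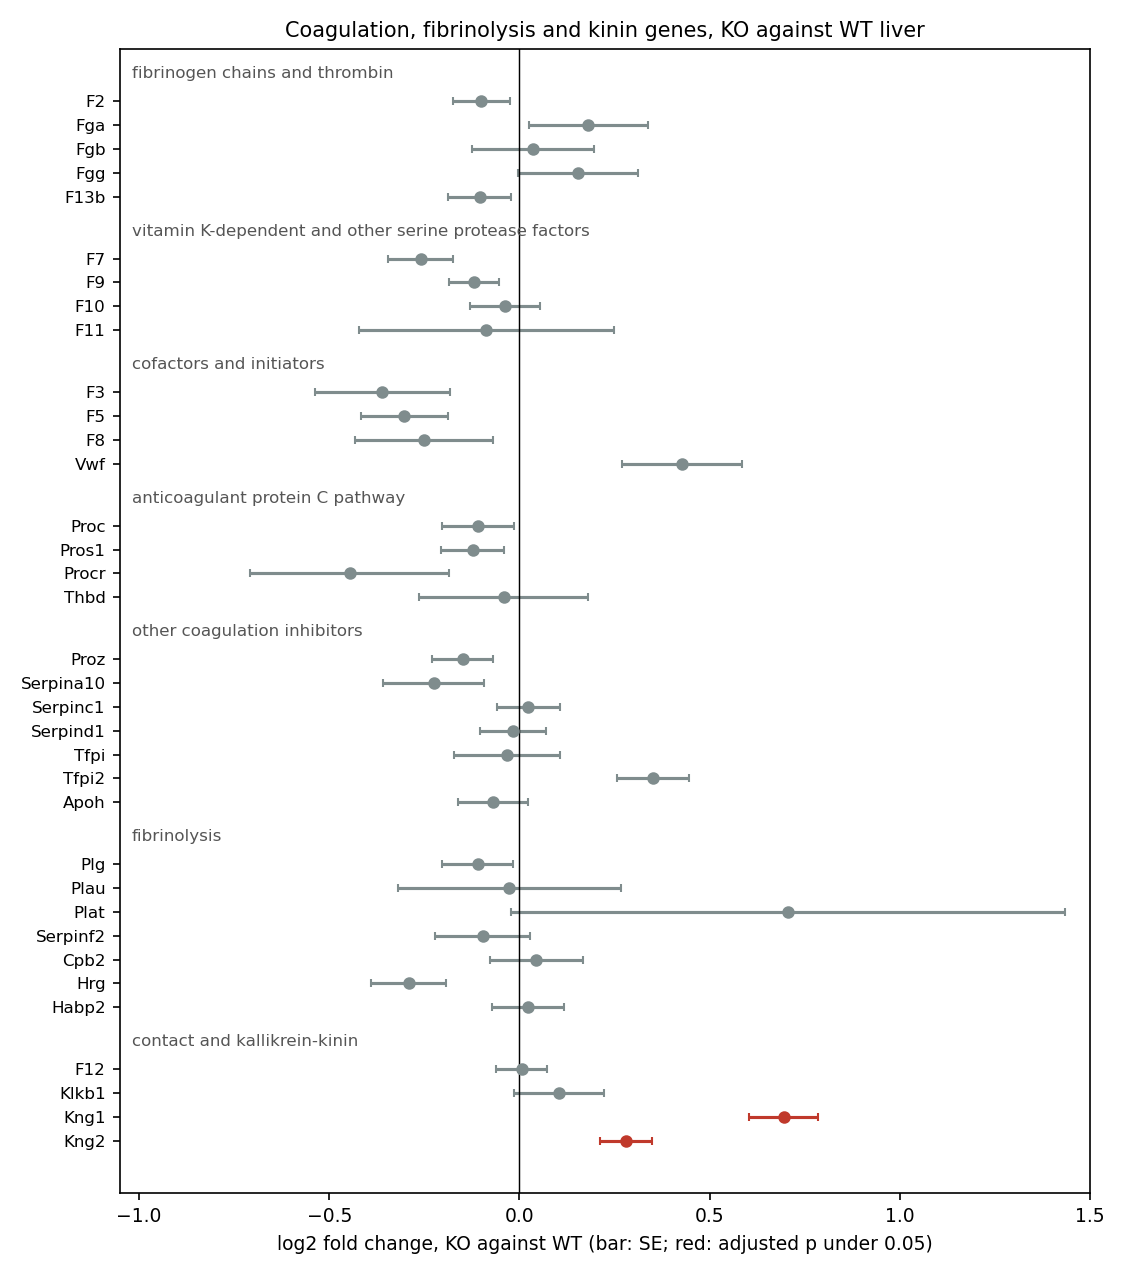
Log2 fold change of KO against WT liver (horizontal axis) for the 35 members tested, grouped by role, with the standard error as a bar. Kng1 at 0.69 and Kng2 at 0.28 were called, and most other members lie near 0.

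Per kilobase of exon, member levels ran from 0.1605 to 1392 RPKM. Fga was highest, at 1392 ± 294.5 RPKM (SD, n = 12 libraries), followed by Apoh at 1311 ± 130.5, Fgg at 1202 ± 257.4, Fgb at 919.8 ± 201.0 and Kng1 at 684.7 ± 182.5 RPKM. Fga and Apoh, and Apoh and Fgg, differed by less than 1 SD, and with the longest transcript as the length Apoh (1756 RPKM) came before Fga (1620) and Vwf was at 1.123. At the other end were Plat at 0.1605, Procr at 0.3178, Serpina5 at 0.343 and Vwf at 0.6177 RPKM, of which Plat, Procr and Vwf are known mainly as genes of blood vessel endothelium.

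Kng1 encodes a kininogen, the precursor of bradykinin and, in its long form, the carrier of plasma prekallikrein and factor XI. It lies on chromosome 16 (GRCm38, chr16:23057865-23082078, plus strand, ENSMUSG00000022875). KO libraries 1 to 6 held 3039, 2227, 2699, 2786, 3053 and 2704 CPM, and WT libraries 1 to 6 held 1634, 1708, 1851, 1563, 1564 and 1876 CPM. The groups did not overlap, and even KO library 2, the lowest of its group, lay above the highest WT library. The means were 2751 ± 301.6 CPM (KO) and 1700 ± 138.2 CPM (WT; SD, n = 6 libraries each), a log2 fold change of 0.69 ± 0.09 (SE), or 1.62-fold (edgeR, adjusted p = 0.00534). The exact two-sided permutation test gave p = 0.00216, the smallest that 6 against 6 allows. The call held without each of the 12 libraries in turn, with adjusted p from 0.00273 to 0.0247, but was lost with a 1.5-fold minimum. Among all genes, 2.53% had groups that did not overlap, 1.29% with KO above.

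Kng2, the second mouse kininogen gene, lies next to it on the minus strand (chr16:22985854-23029482, ENSMUSG00000060459). KO libraries 1 to 6 held 349.6, 329.5, 305.3, 331.8, 288.7 and 292.9 CPM, against 260.2, 284.1, 253.8, 260.8, 264.0 and 239.1 CPM in WT. Again every KO library lay above every WT library, though the nearest pair was close. The means were 316.3 ± 24.32 and 260.3 ± 14.66 CPM (SD, n = 6 each), a log2 fold change of 0.28 ± 0.07, or 1.21-fold (edgeR, adjusted p = 0.046; exact permutation p = 0.00216). This call rested on the full set: without any 1 library, adjusted p ran from 0.0522 to 0.108, with log2 fold changes from 0.25 to 0.31. It was also lost with total counts as library sizes (0.109) and with the replicate number as a block (0.0655), and the authors' deposited table gives an adjusted p of 0.0616.

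**Figure D2:**
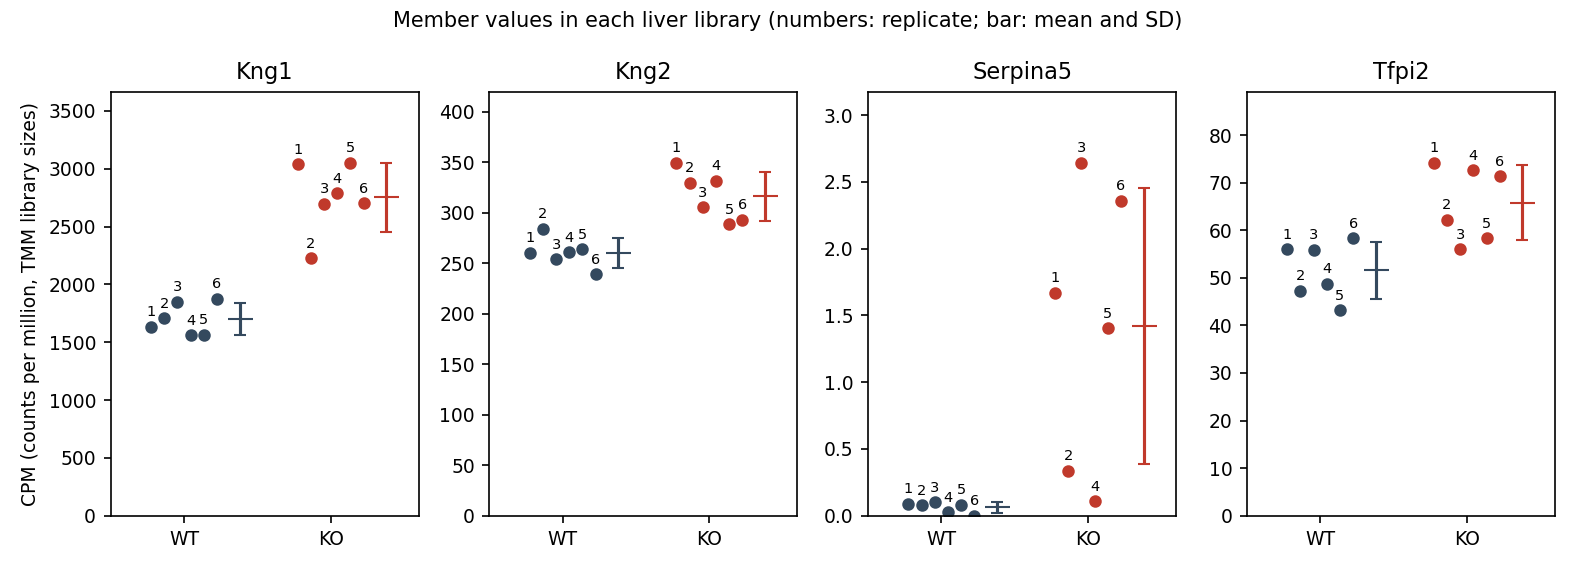
CPM in each of the 6 KO and 6 WT libraries (points) for Kng1, Kng2, Serpina5 and Tfpi2, with the group mean and SD. All KO points of Kng1, from 2227 to 3053 CPM, lie above all WT points, from 1563 to 1876 CPM.

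Ratios within a library, chosen after the values were seen, put the counts of Kng1 at 8.75 ± 1.24 times those of Kng2 in KO livers and 6.56 ± 0.812 times in WT livers (SD, n = 6 libraries each), given as a description with no test. These ranges overlapped, at 6.76 to 10.6 in KO and 5.93 to 7.85 in WT. The sum of both kininogens was 3068 ± 300 CPM for KO against 1960 ± 131 CPM for WT (SD, n = 6 libraries each). The transcripts of these genes are alike, so counting could mix them: 17.2% of the 50-base stretches of Kng1 occur in Kng2, 4.93% of those of 100 bases and 1.39% of those of 150 bases, and the read length is not given in the sources used here. Within a group the correlation of the 2 genes was r = -0.129 and rho = -0.0857 over the 6 KO libraries (exact permutation p = 0.849 and 0.919) and r = -0.506 and rho = -0.6 over the 6 WT libraries (exact permutation p = 0.328 and 0.242; 0.656 and 0.484 after adjustment over 4 relations). No pooled correlation is given, since the groups are separate.

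The upstream sequence of Kng2 is shown because Kng2 was called; the capitals mark a match to TTGCNNAA, a C/EBP-like pattern searched on both strands, which 9.56% of 32851 RefSeq windows of 250 bases hold. The window is chr16:23029102-23029351 on the minus strand (RefSeq, GRCm38.p6), within an intron of alternative Kng2 transcripts. A match is a description of the letters and not a site.
Kng2: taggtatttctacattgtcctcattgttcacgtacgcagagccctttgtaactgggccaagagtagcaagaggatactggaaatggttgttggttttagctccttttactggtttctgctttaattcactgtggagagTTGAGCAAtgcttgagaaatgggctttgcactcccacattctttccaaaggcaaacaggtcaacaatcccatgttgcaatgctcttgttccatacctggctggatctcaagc

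The genes around the kininogens were read in order, a choice made after their values were seen. Of 14 genes in the table starting within 250 kb of the Kng1 start, 7 in a row, from Kng2 through Gm6493, Kng1, Eif4a2, Rfc4 and C730014E05Rik to Gm15746, had positive log2 fold changes. Outside the kininogens the values were 0.79 ± 0.35 for Gm6493, 0.24 ± 0.08 for Eif4a2, 0.54 ± 0.16 for Rfc4, 0.27 ± 0.16 for C730014E05Rik and 0.83 ± 0.26 for Gm15746 (SE), and none of these 5 was called by edgeR (adjusted p from 0.0888 to 0.349). Gm6493 held 7.549 CPM in KO library 1 and 1.741 to 2.602 in the other KO libraries, against 1.067 to 2.357 in WT. Gm15746 held 13.87 CPM in KO library 1 and 3.587 to 8.483 in the others, against 3.52 to 5.088 in WT. Gm6493 also lies within the span of Kng2 on the same strand, so it is not a separate neighbour. The genes on either side of the run had negative values, Hrg at -0.29 and St6gal1 at -0.34, but the other genes of the window were mixed in sign: Dnajb11 was at 0.32 ± 0.15, above Kng2, Tbccd1 at 0.04, Ahsg at 0.00, Fetub at -0.29 and Gm30505 at -0.36 (edgeR, adjusted p from 0.213 to 0.996). The annotated start of Adipoq, the adiponectin gene, lies in this stretch, 88.7 kb from the Kng1 start. Adipoq itself is not among the 14 genes of the window in the table, so no value of it was analysed here. Whether DNA of this stretch differs between the groups, as passenger DNA or a transgene would make it, and what part that has in the kininogen values, was not tested.

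**Figure D3:**
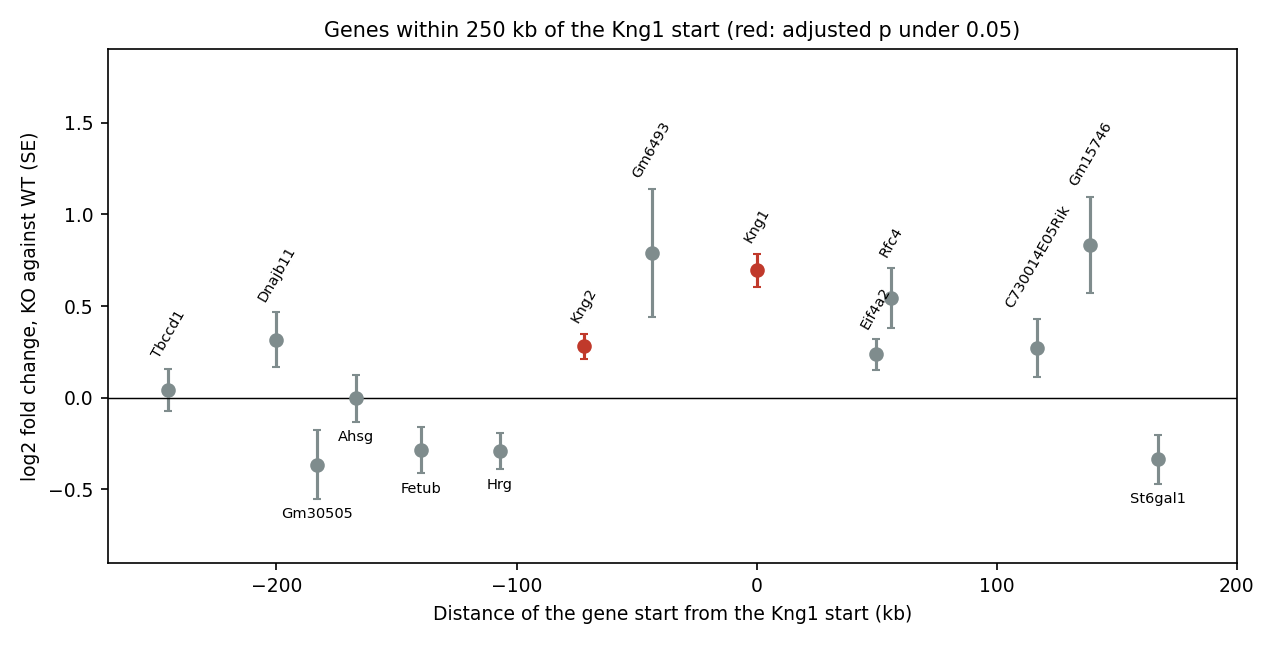
Log2 fold change with SE (vertical axis) of the genes within 250 kb of the Kng1 start, against distance from it in kb. Values from Kng2 to Gm15746 are above 0, and Hrg and St6gal1 on either side are below 0.

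The proteases of the contact system differed little. F12, which encodes factor XII, held 517.6 ± 32.06 CPM in KO and 515.3 ± 30.06 in WT, a log2 fold change of 0.01 ± 0.07. Klkb1, the gene of plasma prekallikrein, held 211.4 ± 29.44 and 196.6 ± 32.49 CPM (SD, n = 6 each), a log2 fold change of 0.10 ± 0.12. Klkb1 shares 43.2% of its exon bases with the overlapping gene Gm45753 on the same strand, so its level is uncertain. The members of this system that were called were thus the 2 kininogen genes, and neither protease was called (edgeR, adjusted p = 0.969 and 0.662).

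The 3 fibrinogen chain genes Fga, Fgb and Fgg sit together on chromosome 3 and encode the chains of the hexamer that thrombin turns into fibrin. Fga ran from 3801 to 5091 CPM in KO (median 4482) and from 3097 to 6177 in WT (median 3630). Fgb ran from 2934 to 4083 CPM in KO (median 3547) and from 2690 to 5576 in WT (median 3120). Fgg ran from 2326 to 3136 CPM in KO (median 2622) and from 1860 to 3772 in WT (median 2210). The groups overlapped for all 3 chains, and for each the highest library was WT 6. The log2 fold changes were 0.18 ± 0.16 for Fga, 0.04 ± 0.16 for Fgb and 0.15 ± 0.16 for Fgg (SE; edgeR, adjusted p = 0.535, 0.925 and 0.615). Leaving out WT library 6 gave the largest of the leave-one-out values: 0.36 for Fga, 0.22 for Fgb and 0.33 for Fgg.

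Serpina3n, an acute-phase protease inhibitor gene outside the member list, was also highest in WT library 6, at 1357 CPM against 481.4 to 614.5 in the other WT libraries. The part that this library's state plays in the fibrinogen values was not tested.

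The chains varied together from library to library. Over the 12 libraries the Pearson correlation of log2 CPM was 0.946 for Fga and Fgb, 0.985 for Fga and Fgg and 0.958 for Fgb and Fgg. Spearman's rho was 0.909, 0.993 and 0.902. The permutation p of each r was 1e-05, the smallest that 100000 resamples give, and 4.33e-05 after adjustment over 13 pairs. Without KO library 6 and WT library 6, the 2 farthest from the median, r was 0.909, 0.969 and 0.914. All 12 points share the tissue and the TMM scaling.

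Ratios between the chains within a library were also chosen after the values were seen and are given as a description with no test. Fga counts were 1.26 ± 0.0543 times Fgb counts in KO livers and 1.14 ± 0.0492 times in WT livers (SD, n = 6 libraries each). Fgg counts were 0.747 ± 0.0307 and 0.69 ± 0.0284 times those of Fgb. Fga over Fgg was 1.68 ± 0.0864 and 1.65 ± 0.0133. Ranges overlapped for both ratios to Fgb, from 1.17 to 1.31 against 1.09 to 1.2 for Fga over Fgb and from 0.712 to 0.793 against 0.661 to 0.731 for Fgg over Fgb.

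**Figure D4:**
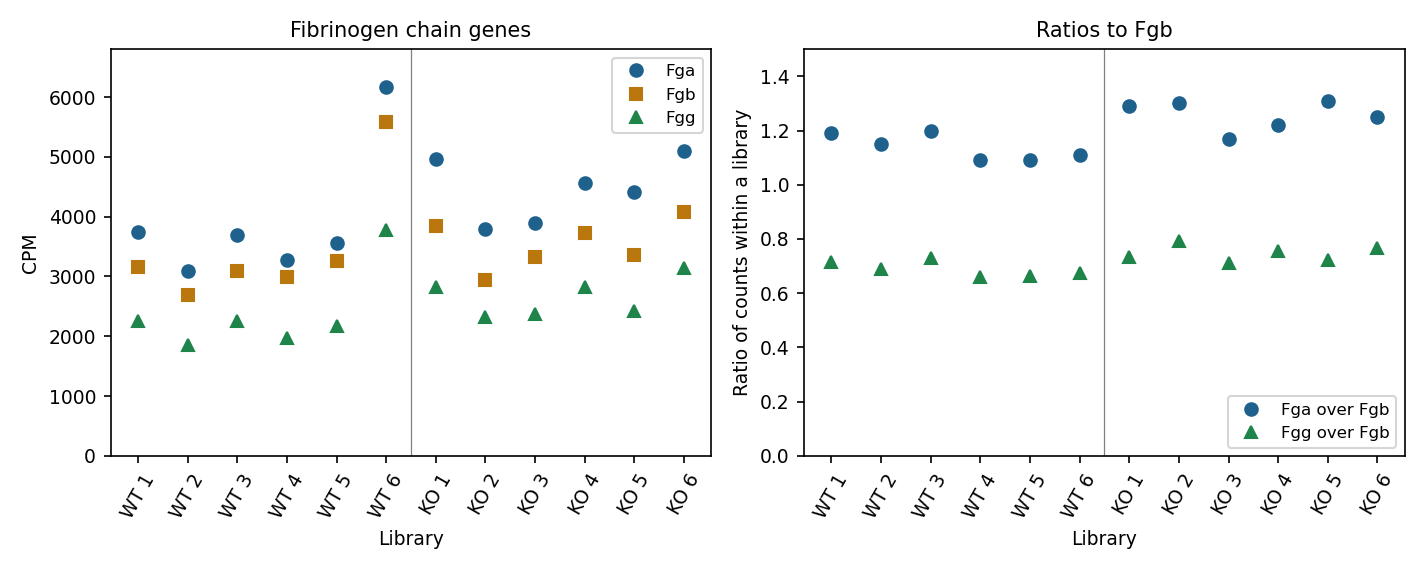
CPM of Fga, Fgb and Fgg in each library and the ratios of Fga and Fgg to Fgb. WT library 6 is highest for every chain, at 6177, 5576 and 3772 CPM, and the ratio of Fga to Fgb runs between 1.17 and 1.31 in KO and between 1.09 and 1.2 in WT.

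The upstream windows of the chain genes are shown because these genes vary together. Capitals mark matches on either strand to CTGGGA, the hexamer known from the interleukin-6 response of fibrinogen genes, to GTTAAT, an HNF1-like element written ATTAAC on the other strand, and to TTGCNNAA. The shares of all 32851 RefSeq windows that hold them are 27.0%, 6.43% and 9.56%. CTGGGA occurs in all 3 windows, TTGCNNAA in those of Fga and Fgb, and GTTAAT in that of Fgb only, among these 3. TTANGTAA, a pattern of Hlf, Dbp and Tef (2.06% of windows), occurs in none of the 3. The windows are Fga chr3:83025903-83026075 (plus strand), Fgb chr3:83049864-83050113 (minus strand) and Fgg chr3:83007474-83007723 (plus strand), RefSeq GRCm38.p6.
Fga: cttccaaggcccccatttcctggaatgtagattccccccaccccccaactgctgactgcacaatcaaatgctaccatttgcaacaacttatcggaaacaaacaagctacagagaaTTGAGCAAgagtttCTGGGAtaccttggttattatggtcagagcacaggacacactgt
Fgb: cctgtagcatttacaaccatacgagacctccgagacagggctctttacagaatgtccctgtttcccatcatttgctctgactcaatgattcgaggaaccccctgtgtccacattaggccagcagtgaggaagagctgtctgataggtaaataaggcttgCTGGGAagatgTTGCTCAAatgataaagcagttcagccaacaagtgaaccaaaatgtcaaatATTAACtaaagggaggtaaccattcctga
Fgg: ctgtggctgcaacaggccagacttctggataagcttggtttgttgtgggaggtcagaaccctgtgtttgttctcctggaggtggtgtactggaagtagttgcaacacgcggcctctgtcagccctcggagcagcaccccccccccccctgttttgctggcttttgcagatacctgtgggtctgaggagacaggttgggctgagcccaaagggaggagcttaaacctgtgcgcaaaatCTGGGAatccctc

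F2 encodes prothrombin, the precursor of thrombin, and ran from 1452 to 1872 CPM in KO (median 1730) and from 1763 to 1936 CPM in WT (median 1809). F13b, the carrier subunit of factor XIII, which cross-links fibrin, ran from 151.0 to 207.0 CPM (median 191.3) against 178.3 to 227.9 (median 202.7). Both overlapped between groups, with log2 fold changes of -0.10 ± 0.07 and -0.10 ± 0.08 (SE; edgeR, adjusted p = 0.464 and 0.501). F2 and Serpinc1, the antithrombin gene whose product inhibits thrombin, varied together over the 12 libraries (r = 0.705, rho = 0.734, permutation p of r adjusted 0.0257 and of rho 0.0231; r = 0.65 without KO library 2 and WT library 4). With total counts as library sizes r was 0.54 and no longer passed (adjusted permutation p = 0.0826).

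The 4 serine protease factors F7, F9, F10 and F11 all had negative log2 fold changes, although F11 was positive with limma-voom and the sign of F10 and F11 depended on single libraries, and none was called. F7 encodes factor VII, which binds tissue factor. It ran from 66.35 to 93.48 CPM in KO (median 82.59) and from 89.92 to 107.4 in WT (median 99.1), so the groups overlapped only at their edges. The log2 fold change was -0.26 ± 0.09 (SE; edgeR, adjusted p = 0.11; exact permutation p = 0.013, not adjusted). F9, the haemophilia B gene, ran from 199.3 to 230.7 CPM (median 217.4) against 211.6 to 255.7 (median 236.1), with -0.12 ± 0.07 (adjusted p = 0.322). F10, factor X, held 348.1 ± 44.01 and 357.3 ± 32.21 CPM (SD, n = 6 each), and F11, factor XI, held 86.08 ± 23.53 and 91.42 ± 52.17 CPM. F11 spread widely in WT, from 48.21 to 164.8 CPM, with the high values in libraries 3 and 6.

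F10 and Proz varied together (r = 0.78, rho = 0.643, adjusted permutation p of r 0.00774 and of rho 0.045), but r fell to 0.484 without KO libraries 2 and 5. F7 and F10 gave r = 0.667 (rho = 0.587, adjusted permutation p 0.0257 and 0.0629), and 0.224 without KO libraries 1 and 2, so that relation rests on those libraries. F11 and Klkb1, whose products circulate bound to kininogen, gave r = 0.674 (rho = 0.741, adjusted permutation p 0.0257 and 0.0231) and 0.681 without WT libraries 3 and 6. These genes also lie close together on chromosome 8, as do F7, F10 and Proz at another place on it. With total counts as library sizes none of these 3 relations passed: adjusted permutation p was 0.052 for F10 and Proz, 0.0648 for F7 and F10 and 0.0559 for F11 and Klkb1.

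Of the cofactors and initiators, F5 encodes factor V, the cofactor of factor X, and F8 encodes factor VIII, the cofactor of factor IX. F5 ran from 467.1 to 695.6 CPM in KO (median 643.5) and from 608.4 to 796.2 in WT (median 764.1), a log2 fold change of -0.30 ± 0.12 (SE; edgeR, adjusted p = 0.156). In WT, library 6 was the low one, and the other 5 lay above every KO library. Vwf, von Willebrand factor, the carrier of factor VIII, ran from 8.833 to 13.78 CPM (median 11.65) against 6.546 to 11.81 (median 8.102), with 0.43 ± 0.16 (adjusted p = 0.144). F8 and F3, the tissue factor gene, held 10.89 ± 3.025 and 3.719 ± 0.917 CPM in KO and 12.94 ± 2.854 and 4.768 ± 0.9414 CPM in WT (SD, n = 6 each; log2 fold changes -0.25 ± 0.18 and -0.36 ± 0.18).

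Vwf, F8, Thbd and Procr are largely endothelial. The 14 liver sinusoidal endothelial markers summed to 346 to 472 CPM in KO and 362 to 495 CPM in WT, and the 14 general vascular markers to 217 to 308 and 223 to 295 CPM, with no member of either list called and none at 0 in all libraries. Log2 fold changes were negative for 12 of the 14 sinusoidal markers (85.7%, median -0.10). They were negative for 11 of the 14 vascular markers (78.6%, median -0.05), against 49.4% of all genes. The 6 of 13 platelet markers in the table summed to 13.9 to 18.0 CPM in KO and 17.8 to 21.9 CPM in WT. Of these 6, 4 had negative and 2 positive log2 fold changes, and none was called. Clec1b averaged 5.125 CPM in KO and 7.084 in WT, and Itga2b 3.804 and 3.754. The part of endothelial cells and platelets in the values of Vwf and F8 was not tested.

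In the protein C pathway, which shuts off factors V and VIII, no tested member was called. Proc, protein C, held 473.7 ± 54.94 CPM in KO, against 510.6 ± 56.16 in WT (SD, n = 6 each). Pros1, its cofactor protein S, ran from 59.05 to 75.0 CPM in KO (median 62.63) and from 58.01 to 79.38 in WT (median 70.61), with -0.12 ± 0.08 (edgeR, adjusted p = 0.417). Procr, the endothelial protein C receptor, ran from 0.3996 to 0.6258 CPM (median 0.5618) and from 0.4055 to 1.227 (median 0.6895), with -0.45 ± 0.26 (adjusted p = 0.343). Thbd, thrombomodulin, held 3.1 ± 0.8639 and 3.187 ± 0.8598 CPM.

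Serpina5 encodes protein C inhibitor, a serpin that also blocks kallikrein and thrombin, and lies at chr12:104101113-104106137 (plus strand, ENSMUSG00000041550). Its counts were near 0 in WT liver: WT libraries 1 to 6 held 3, 3, 4, 1, 3 and 0 counts, and KO libraries 1 to 6 held 60, 14, 86, 4, 52 and 80. In CPM, the means were 1.42 ± 1.033 for KO and 0.06263 ± 0.03995 for WT (SD, n = 6 each), and every KO value lay above every WT value (exact permutation p = 0.00216). The separation was narrow at one end, since KO library 4 and WT library 3 both held 4 counts. With no filter, edgeR gave a log2 fold change of 4.46 (adjusted p = 0.0176), and DESeq2 gave 4.48 (adjusted p = 5.4e-07). It entered the edgeR fit in 7 of the leave-one-out fits, with log2 fold changes from 4.23 to 4.7 and adjusted p from 0.00365 to 0.0506. No WT library held more than 4 counts, so it passed the filter there only through KO libraries, where it is high. These p-values are therefore no separate support. The p-values of the edgeR fit with no filter, of DESeq2 and of the permutation test rest on the same counts and are no separate support either. The values without WT library 2 and without WT library 4 missed the threshold, at 0.0504 and 0.0506. The authors' deposited table, made from the same counts, gives 4.49 (adjusted p = 2.51e-05).

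KO libraries 1, 3, 5 and 6 were the high ones for Serpina5, library 2 was lower at 0.3369 CPM, and library 4, at 0.1084 CPM, was near the WT maximum of 0.1003 CPM. Some of the 15 genes starting within 250 kb of the Serpina5 start, itself included, shared that order, a pattern chosen after values were seen. Serpina3c held 24.37, 0.5054, 29.85, 0.786, 29.51 and 31.24 CPM in KO libraries 1 to 6, against 0.1278 to 1.183 CPM in WT. It was called, with a log2 fold change of 5.49 ± 1.07 (SE, edgeR, adjusted p = 0.0267). Serpina11 held 66.38, 20.7, 69.1, 30.82, 91.11 and 86.26 CPM, with a log2 fold change of 1.15 ± 0.38 (edgeR, adjusted p = 0.118). Serpina4-ps1 followed that order only in part, with 546.4, 169.2, 624.0, 187.0, 123.6 and 431.2 CPM. In the other direction, Serpina1a, Serpina1e, Serpina3f and Serpina3g had log2 fold changes of -0.21, -0.26, -0.69 and -0.80. None of these was called (edgeR, adjusted p from 0.0725 to 0.874). Close copies in this cluster can share reads, so single-gene levels are uncertain.

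The upstream window of Serpina5 is shown because its fold change was the largest among the members. It is chr12:104100863-104101112 (plus strand, RefSeq GRCm38.p6). Capitals mark CTGGGA, present on the other strand as TCCCAG, and TTGCNNAA.
Serpina5: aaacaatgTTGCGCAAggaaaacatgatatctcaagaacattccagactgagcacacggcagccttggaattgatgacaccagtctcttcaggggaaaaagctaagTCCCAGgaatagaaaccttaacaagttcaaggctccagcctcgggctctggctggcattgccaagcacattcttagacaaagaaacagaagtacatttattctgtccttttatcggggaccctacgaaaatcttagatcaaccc

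Among the other inhibitors, Tfpi2 came nearest to a call. It encodes a Kunitz-type inhibitor related to tissue factor pathway inhibitor. It ran from 56.01 to 74.21 CPM in KO (median 66.8) and from 43.18 to 58.29 in WT (median 52.32), and 5 of the 6 KO values exceeded the WT maximum. The log2 fold change was 0.35 ± 0.09 (SE; edgeR, adjusted p = 0.0637; exact permutation p = 0.00649). DESeq2 called it (adjusted p = 0.0183), as did limma-voom with library weights (0.0291) and edgeR without WT library 6 (0.0427), and the authors' deposited table gives 0.0922. Tfpi itself held 5.675 ± 0.7518 and 5.797 ± 1.086 CPM (SD, n = 6 each).

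Proz, protein Z, a cofactor in the inhibition of factor X, ran from 308.9 to 433.1 CPM in KO (median 389.2) and from 411.2 to 448.4 in WT (median 418.0). In 5 of 6 KO libraries it was below all WT libraries, with -0.15 ± 0.08 (edgeR, adjusted p = 0.302; exact permutation p = 0.039, not adjusted). Its partner Serpina10, the protein Z-dependent inhibitor, held 177.9 ± 20.17 and 208.0 ± 50.42 CPM (-0.23 ± 0.13), where the WT spread came from library 6 at 309.2 CPM. Serpinc1 held 1879 ± 192.5 and 1849 ± 122.6 CPM, Serpind1, heparin cofactor II, held 500.0 ± 57.48 and 505.6 ± 41.91 CPM, and Apoh, beta-2 glycoprotein I, held 2040 ± 253.4 and 2140 ± 157.6 CPM in KO and WT. The log2 fold changes of these 3 were 0.02 ± 0.08, -0.02 ± 0.09 and -0.07 ± 0.09 (SE). Serpinc1 shares 34.4% of its exon bases with Zbtb37 on the opposite strand, and the strand setting of the counts is not given in the sources used here.

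In fibrinolysis no member was called. Hrg, histidine-rich glycoprotein, which binds plasminogen and fibrinogen, ran from 741.6 to 996.5 CPM in KO (median 899.1) and from 919.2 to 1196 in WT (median 1099). Its log2 fold change was -0.29 ± 0.10 (SE; edgeR, adjusted p = 0.118; exact permutation p = 0.0195, not adjusted). Hrg lies beside Kng2, and its value has the opposite sign to those of the kininogens. Within groups its correlation with Kng1 was r = 0.314 and rho = 0.0857 over the 6 KO libraries (exact permutation p = 0.596 and 0.919) and r = -0.869 and rho = -0.829 over the 6 WT libraries (exact permutation p = 0.0347 and 0.0583; 0.139 and 0.233 after adjustment over 4 relations).

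Plg, plasminogen, ran from 1474 to 2158 CPM in KO (median 1918) and from 1933 to 2238 in WT (median 2056), with -0.11 ± 0.09 (edgeR, adjusted p = 0.531). Serpinf2, the plasmin inhibitor alpha-2-antiplasmin, held 792.0 ± 123.0 and 847.0 ± 137.7 CPM, and Cpb2, which encodes the carboxypeptidase that protects fibrin from plasmin, held 280.3 ± 35.14 and 271.8 ± 53.41 CPM (SD, n = 6 each). Habp2, a protease acting on factor VII, held 165.0 ± 22.53 and 162.5 ± 15.14 CPM. The activators were scarce: Plau, urokinase, held 1.694 ± 0.6638 and 1.724 ± 0.5328 CPM. Plat, tissue plasminogen activator, ran from 0.06148 to 3.755 CPM in KO and 0.2759 to 1.815 CPM in WT, so no fold change between groups could be resolved beyond its error (0.71 ± 0.73).

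**Figure D5:**
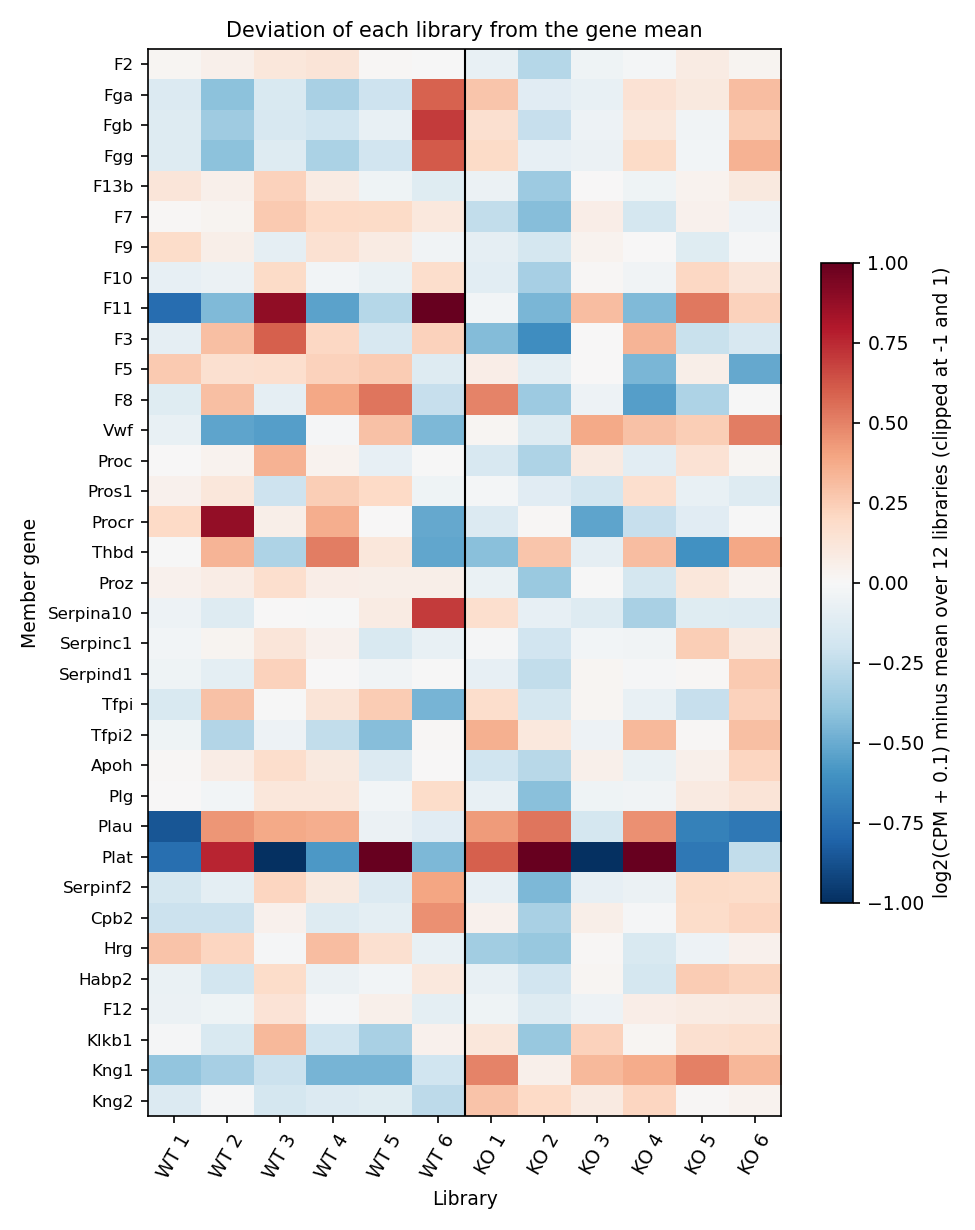
Deviation of log2(CPM + 0.1) from each member's mean over the 12 libraries, members in rows by role and libraries in columns. KO library 2 is low for many members, and the kininogen rows are high in KO and low in WT.

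Other genes of the pathway were read from 6 lists that held 68 genes, of which 57 were in the table and 56 were tested. None rose and 2 fell in KO (3.57% of the 56, against 2.64% of all genes called and 1.49% called lower), both liver transcription factors: Hlf by 0.80 ± 0.16 and Tef by 0.93 ± 0.20 on the log2 scale (SE; edgeR, adjusted p = 0.0266 and 0.0326). Dbp, the third PAR bZIP gene, was at -1.77 ± 0.45 (adjusted p = 0.0609). These are clock output factors. No gene of the 6 lists was called without KO library 6 or without WT library 2, 4 or 5. The log2 fold changes were positive for 24 genes and negative for 32, (57.1% negative, against 49.4% of all genes), with a median of -0.08.

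In the vitamin K cycle, which allows gamma-carboxylation of factors II, VII, IX and X and of proteins C, S and Z, all 4 tested genes had positive log2 fold changes and none was called, with Ggcx, the carboxylase, at 0.11 ± 0.09. The secretion and clearance list held 10 genes, none called; Lrp1, a clearance receptor of factor VIII, was at -0.34 ± 0.10 (edgeR, adjusted p = 0.0747). Among other factors and inhibitors, 16 tested and none called, Anxa2, a cell-surface receptor of plasminogen, was at 1.13 ± 0.38 (adjusted p = 0.118). Of the platelet receptor genes, 4 tested and none called, Gp1ba, the von Willebrand factor receptor subunit, was at -1.30 ± 0.34 (adjusted p = 0.0556). In the list of kinin receptors and kininases, 7 tested and none called, Xpnpep1, an aminopeptidase that degrades bradykinin, was at 0.25 ± 0.08 (adjusted p = 0.109) and Ace at -0.25 ± 0.21. The macrophage markers, which bear on F13a1 and Plaur among these, summed to 256 to 499 CPM in KO and 422 to 666 CPM in WT, and all 16 had negative log2 fold changes (median -0.56), of which 3 were called by edgeR, against 1.49% of all genes called lower. F13a1 itself was at -0.52 ± 0.38 and Plaur at 0.22 ± 0.32 (SE), with opposite signs and group means under 1 CPM. The part of macrophages in these values was not tested.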

How the data were processed

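Liver RNA was measured in 6 KO and 6 WT libraries by polyA-selected sequencing, per the labels' protocols. Its values, as deposited by the authors, were raw read counts of each gene, whole numbers without normalization. It also held the authors' deposited log2 fold changes and p-values, quoted only where named. Per the submitters' processing notes, the tools were FastQC, Trimmomatic, HISAT2, SAMtools, featureCounts and DESeq2 (no versions) and the build was GRCm38. Annotation release, strandedness and handling of shared reads: not given in the sources used here. Of 15344 rows, 204 repeats of a gene with the same counts were dropped, leaving 15140 genes. No pair of libraries in a group looked like a duplicate: their chi-square statistics, each divided by its degrees of freedom, ran from 38.49 to 245.29 over 30 pairs.

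Counts were fitted with edgeR 4.0.16 (R 4.3.3; robust quasi-likelihood F test, TMM, filterByExpr, which removed 140 genes), two-sided, with Benjamini-Hochberg adjustment over 15000 genes and a threshold of 0.05; the fit was tested on simulated data. Each SE is the absolute log2 fold change over the square root of F. RPKM used TMM library sizes and union exon length from GENCODE M21. Exact permutation tests used log2(CPM + 0.1) over 924 splits. Alternatives were DESeq2 1.42.0, limma-voom (limma 3.58.1) with and without library weights, RLE factors, total counts, no filter, 1 CPM in 6 libraries, a replicate block, a 1.5-fold minimum and leaving out each library. All members are named; library values or ranges are given for members called or without overlap, the fibrinogen chains, the kininogens and the 2 members of each role with the smallest p, and up to 3 genes of each pathway list by smallest p. Exceptions, chosen after their values were seen, were the genomic neighbours, the ratios, Serpina3n, Ace, F13a1 and Plaur. Promoter windows were cut at the first annotated exon; 28 of 36 members had one, and those of Vwf, Proc, Thbd, Serpina10, Plg, Plau, Plat and Kng1 are not used here. The members and lists were chosen with earlier results of these data known.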

Additional observations from a re-analysis of the deposited data

Results flagged for a closer look

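Each member was examined in each group of 6 libraries for 1 library far from the others: the gap from the highest or lowest library to its nearest neighbour, divided by the group's whole range, had to exceed Dixon's critical value for 6 samples. This was met by 11 of 72 groups, where chance gives about 1 in 20, or 3.6. Members vary together within a library, so the 72 groups are not independent and the 3.6 is no test of the count.

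WT library 6 stood high for the fibrinogen chains, with ratios of 0.725 for Fga, 0.735 for Fgb and 0.727 for Fgg, and for Serpina10 (0.741), the inhibitor gene that acts with protein Z. The same library stood low for F5 (0.754), factor V. WT library 3 stood high for Proc (0.714), Proz (0.731) and Serpind1 (0.686), genes of coagulation inhibitors. KO library 2 stood low for F13b (0.671), Plg (0.638) and Klkb1 (0.656). None of the 11 involved a kininogen, Serpina5 or Tfpi2.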

How the results depend on the processing

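The edgeR test as reported called 396 genes, 2 members and 2 other pathway genes. A 1.5-fold minimum called 7, 0 and 0. DESeq2 called 1214, 4 and 10, and limma-voom with library weights called 889 genes and 7 pathway genes. Total counts called 257 genes and 1 member. No label says that equal replicate numbers share a litter or day. Deviations of same-numbered libraries from their group means gave r from -0.204 to 0.362. For KO libraries 2, 4 and 6 the best WT partner bore the same number. Such correlations cannot decide whether the numbers pair the libraries. With the replicate block 374 genes and 1 member, Kng1, were called. Leaving out 1 library gave 25 to 700 genes, 1 to 3 members and 0 to 3 pathway genes. Leave-one-out log2 fold changes crossed 0 for Fgb (-0.027 to 0.224), F10 (-0.0969 to 0.0181), F11 (-0.217 to 0.165), Thbd (-0.14 to 0.0699), Serpinc1 (-0.0376 to 0.0618), Serpind1 (-0.0836 to 0.0315), Tfpi (-0.114 to 0.0258), Plau (-0.164 to 0.0829), Plat (-0.0496 to 1.17), Cpb2 (-0.00371 to 0.159), Habp2 (-0.0402 to 0.0628) and F12 (-0.0209 to 0.0351), none of them called. F11 was also positive with voom weights (0.193), voom (0.0473) and the block (0.0449), and F12 negative with 1 CPM in 6 libraries (-0.00776) and total counts (-0.0115). For Kng1 and Kng2, deviations from group means gave r = -0.256, with the same sign as within each group and the opposite one to all 12 libraries together. Correlations changed sign for F8 and Vwf with total counts (0.0158) and group deviations (0.297), and for Tfpi and F3 without 2 libraries (0.0491). The 1.5-fold minimum, under which neither kininogen was called, is left out of the following counts. Of the members' other log2 fold changes under the remaining alternatives, 641 kept their direction and side of the threshold, 14 no longer passed it and 3 newly did. The causes were not tested. Low counts limit Serpina5, Plat and Procr most.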
